A study of Mus musculus with 6 samples.

Results

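The proteasome genes of GP muscle, the gastrocnemius and plantaris of the mouse hindlimb, were described from bulk mRNA sequencing of 6 mice. Members were all symbols in the deposited count tables that start with Psm, a letter from a to g and a digit, without pseudogenes. This rule found 50 of 24421 genes. They were grouped as 8 core alpha genes, 7 core beta genes, 4 immunoproteasome and thymus-type beta genes, 9 base genes, 8 lid genes, 6 genes of the activators and their inhibitor, and 7 assembly chaperones. The remaining symbol, Psmc3ip, encodes a factor of meiotic recombination that was named for binding a base subunit and is not a subunit itself. It was kept as a member because the rule finds it.

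The 3 libraries labelled Ctrl came from Net39 fl/fl mice without Cre. The 3 labelled cKO came from mice of genotype HSACreERT2;Net39 fl/fl, in which the human skeletal actin promoter drives a tamoxifen-inducible Cre in skeletal muscle fibres, leaving satellite cells and the heart without it. All 6 mice were males by the study's methods, carried the floxed allele on both chromosomes and were 5 months old, 3 months after tamoxifen. Their strain background traces to B6C3F1 zygotes, in which the floxed allele was made. By the same methods the founders were then mated to another strain, and the floxed line was crossed with the Cre line. Each library was 1 mouse. Net39, listed under its older symbol Ppapdc3 and the gene that the cross is meant to delete, went against these labels. It had 310, 321 and 217 counts in libraries labelled Ctrl and 5365, 4340 and 6080 counts in libraries labelled cKO, a log2 fold change of 4.22 (SE 0.17, edgeR quasi-likelihood test, adjusted p = 0.0001607). Groups were kept as labelled, and every direction that follows is that of the labels, which the count of the targeted gene contradicts.

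The proteasome is the protease that degrades ubiquitin-tagged proteins in the cytosol and nucleus. Its core is a barrel of alpha and beta rings. The alpha subunits form the outer rings and gate the entrance, and 3 of the beta subunits, Psmb5, Psmb6 and Psmb7, carry the proteolytic sites inside. A base of ATPases unfolds substrates and feeds them into the barrel, and a lid on top of the base removes the ubiquitin. Other caps can take the place of base and lid, and interferon induces a set of alternative catalytic subunits that form the immunoproteasome. In skeletal muscle the system is best known for the breakdown of myofibrillar proteins during wasting, which is started by muscle-specific ubiquitin ligases.

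Total counts were 33860001 to 38201728 in the group labelled Ctrl and 39191239 to 48839910 in the group labelled cKO. Of 18918 genes with a count, 14180 passed the filter on low counts and were tested. The 10 most abundant genes took 14.69 to 17.14% of all counts in libraries labelled Ctrl and 21.79 to 25.31% in libraries labelled cKO, and the TMM scaling factors were 1.08 to 1.11 and 0.865 to 0.983. Levels are given as CPM, the count scaled to the library's total and its TMM factor, unless stated otherwise. Markers of muscle were present in every library, and fibre-type markers differed between the groups. All 10 genes of a fast IIb fibre list passed the test as higher in libraries labelled cKO, against 12.6% of all genes (summed level 64189 to 106010 CPM against 170220 to 215390 CPM). In a slow fibre list, 6 of 11 genes passed in edgeR as higher in libraries labelled Ctrl, against 11.8% of all genes (9460.4 to 15999 CPM against 609.65 to 4198.2 CPM). At an unadjusted p under 0.05, 10 of the 11 did so, and 10 did in DESeq2, against 1830 of all 14881 genes that DESeq2 tested. The part of this difference in the results on proteasome genes was not tested. In whole muscle, fewer cells or fibres of a type and less RNA per cell cannot be told apart.

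Most proteasome genes were abundant and varied little between mice. The 50 genes together reached 4041, 4272 and 4302 CPM in libraries labelled Ctrl and 4869, 4536 and 4883 CPM in libraries labelled cKO. The coefficient of variation between mice of a group had a median of 5.02% (labelled Ctrl) and 5.26% (labelled cKO) over the 48 members tested, against 10.6% and 10.7% over all genes tested. Among genes of at least 40 CPM, the medians were 4.46% and 4.79% for 33 members and 7.2% and 7.23% for 3602 genes. The median standard error of the log2 fold change was 0.08 for members and 0.14 for all genes tested. Small differences between the groups could therefore be resolved better for most members than for most genes. The immunoproteasome class was an exception, with a median standard error of 0.34 over the 3 genes tested.

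Between the groups, most proteasome genes did not pass the test, and the few that passed lay in every structural class but the immunoproteasome. Psme4, the nuclear proteasome activator, showed the largest rise in libraries labelled cKO, and the lid gene Psmd11 and the assembly chaperone Psmd5 fell there. Of 48 members tested, 8 were higher in libraries labelled cKO at an adjusted p under 0.05 (16.7%, against 12.6% of all genes tested in that direction). A further 2 were higher in libraries labelled Ctrl (4.17%, against 11.8% of all genes). In both directions 10 of 48 members passed (20.8%), against 24.4% of all genes, so the share of members called was near the background. With a fold change over 2 added to the call, 0 members passed in edgeR or DESeq2, and 0 at an unadjusted p. In edgeR at an adjusted p, 6.05% of all genes did. An unadjusted p under 0.05 was reached by 16 of 48 in edgeR, and the share of all genes at that limit was not counted. DESeq2 called 11 members higher (adding Psma7, Psmd4 and Psmd6) and 2 lower in libraries labelled cKO. Over all genes it called 2094 higher and 1830 lower of 14881 tested. The groups stood apart, with no value of one inside the range of the other, for 25 of 48 members (52.1%), against 43.9% of all genes.

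The log2 fold changes of the 48 members ran from -0.80 (Psmb9) to 0.86 (Psme4), with a median of 0.06, against a median of -0.02 over all genes tested. With TMM scaling 30 members lay above 0 and 18 below, whereas with total counts alone 10 lay above 0 and the median became -0.20. Total counts moved the median of all genes to -0.27, and relative to that median the members stood at 0.07 under either scaling. The members' share of all counts showed the same dependence. It was 0.4497 to 0.4645% of raw counts in libraries labelled Ctrl and 0.4211 to 0.4457% in libraries labelled cKO, so without scaling the order of the groups turned. The number of members called higher in libraries labelled cKO depended on single libraries: it was 1 without labelled Ctrl 1, labelled Ctrl 2 or labelled cKO 3, 2 without labelled cKO 1, 6 without labelled Ctrl 3 and 7 without labelled cKO 2. The number called higher in libraries labelled Ctrl was 1 without labelled Ctrl 2, labelled cKO 1 or labelled cKO 3, 2 without labelled Ctrl 1 or labelled Ctrl 3, and 3 without labelled cKO 2. Psme4 and Psmd11 passed in the same direction in each of these 6 fits, whereas each of the other 7 genes called higher lost its call in at least 4 of them, and Psma6 in all 6.

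**Figure D1:**
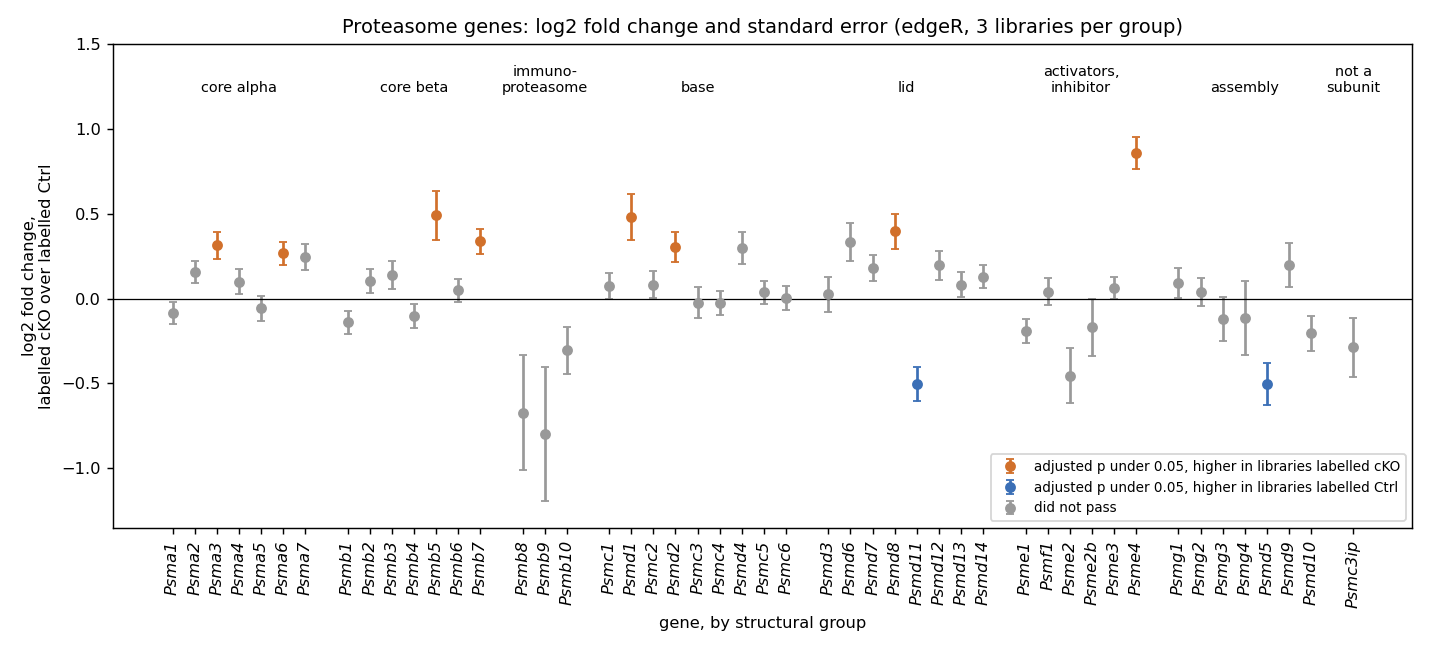
Log2 fold change (libraries labelled cKO over libraries labelled Ctrl, TMM scaling) of the 48 proteasome genes tested, by structural group, with the standard error of the edgeR fit (3 libraries per group). Orange and blue points passed an adjusted p of 0.05 as higher in libraries labelled cKO (8 genes) or labelled Ctrl (2 genes), and with total counts in place of TMM every point lies lower and 1 gene, Psme4, stays past the threshold as higher.

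**Figure D2:**
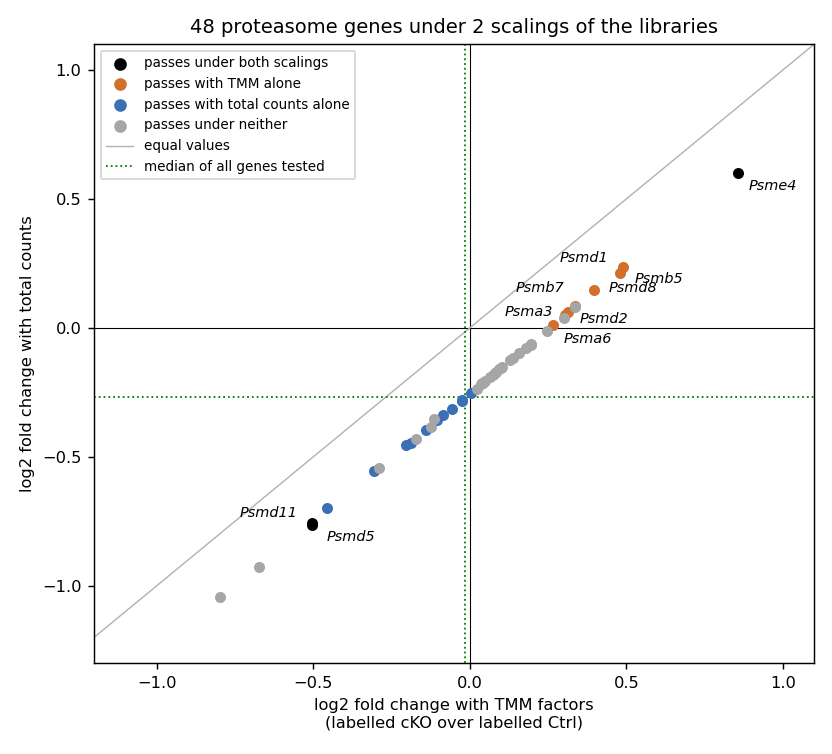
Log2 fold change of the 48 genes with TMM factors (x axis) and with total counts (y axis), labelled cKO over labelled Ctrl. Dotted lines mark the median of all 14180 genes tested under each scaling (-0.02 and -0.27), and all points shift down together by about the same amount while Psme4, Psmd5 and Psmd11 pass the threshold under both.

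The activators and the inhibitor held the largest rise among all members. Psme4 encodes a single large protein that caps the core without ATP or ubiquitin and is known for roles in the nucleus, in histone turnover and in DNA repair. Its level was 201, 196 and 219 CPM in libraries labelled Ctrl and 366, 345 and 402 CPM in libraries labelled cKO. All 3 libraries labelled cKO lay well above all 3 labelled Ctrl. The log2 fold change was 0.86 (SE 0.09, adjusted p = 0.002719), a 1.81-fold difference, and its value stayed between 0.60 and 0.91 under every scaling, filter and left-out library. The gene lies at chr11:30771726-30880361 on the plus strand (mm10, GENCODE M21), and none of its exon bases overlapped another annotated gene.

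The promoters of Psme4 and Psmd11 are shown because these members passed under every scaling, filter and left-out library, and that of Psmb5 because it passed and holds a match to the core of the antioxidant response element. The sequences are the stretch just before the annotated gene, from the RefSeq promoter table of build GRCm38.p6, read 5′ to 3′ on the strand of the gene. They lie at chr11:30771525-30771725 (plus strand), chr11:80428365-80428614 (plus strand) and chr14:54618023-54618245 (minus strand). Capitals mark the match to TGACNNNGC, the core of the antioxidant response element, to which factors of the Nfe2l family bind.
Psme4: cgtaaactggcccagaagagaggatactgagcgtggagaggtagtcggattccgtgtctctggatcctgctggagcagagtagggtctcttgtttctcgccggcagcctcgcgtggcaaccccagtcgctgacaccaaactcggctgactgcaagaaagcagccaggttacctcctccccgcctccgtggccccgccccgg
Psmd11: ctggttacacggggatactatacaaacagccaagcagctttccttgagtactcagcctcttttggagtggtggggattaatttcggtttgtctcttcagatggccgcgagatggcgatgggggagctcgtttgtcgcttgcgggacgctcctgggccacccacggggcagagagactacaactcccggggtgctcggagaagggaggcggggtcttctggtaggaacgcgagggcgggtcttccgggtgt
Psmb5: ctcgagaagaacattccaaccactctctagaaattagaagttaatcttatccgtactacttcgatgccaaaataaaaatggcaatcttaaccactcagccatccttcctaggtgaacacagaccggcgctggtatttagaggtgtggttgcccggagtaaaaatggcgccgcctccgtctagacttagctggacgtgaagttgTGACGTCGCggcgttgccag
Of the 50 members, 42 were found in the table, and the 250 bases before each RefSeq start were searched on both strands. The motif TGACNNNGC was present in 11.1% of 45 member windows (Psmb5, Psmb6, Psmc6, Psmd12 and Psmd9) and in 10.2% of 32851 windows of all genes. In Psmb5 it began 47 bases before the RefSeq start. The interferon-stimulated response element core GAAANNGAAA was present in 6.67% of member windows and 2.98% of all windows, and the CCAAT box in 33.3% and 33.8%. Of the members with an interferon element match, Psmb3, Psmd4 and Psmd9, none is an interferon-inducible subunit. Matches of different motifs did not overlap in these windows, and a match describes letters, not a bound site.

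The other cap genes did not pass with TMM scaling of all 6 libraries. Psme1 and Psme2 encode the partner subunits of an interferon-inducible cap that is made by many tissues and works with the immunoproteasome. Psme1 was at 40.6, 43.5 and 40.6 CPM in libraries labelled Ctrl and 38.2, 36.0 and 35.1 CPM in libraries labelled cKO (log2 fold change -0.19, SE 0.07, adjusted p = 0.09357). Psme2 was at 14.9, 14.3 and 16.96 CPM and at 8.61, 13.1 and 11.98 CPM (log2 fold change -0.46, SE 0.16, adjusted p = 0.08203). Both genes lay lower in all 3 libraries labelled cKO than in any library labelled Ctrl, and neither passed with TMM scaling. With total counts both were called higher in libraries labelled Ctrl (adjusted p = 0.007966 for Psme1 and 0.03114 for Psme2), and Psme2 was also called without labelled cKO 2. Psme2b, a retrocopy of Psme2 whose reads the counting could have split with its parent, was at 6.03, 7.14 and 7.22 CPM and at 7.45, 5.56 and 5.14 CPM, with overlap (log2 fold change -0.17, SE 0.17, adjusted p = 0.4931). The ratio of Psme2 to Psme1 counts was 36.8, 32.9 and 41.8% in libraries labelled Ctrl and 22.5, 36.3 and 34.2% in libraries labelled cKO, and the ranges overlapped (exact two-sided permutation test, p = 0.4).

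Psme3 encodes the nuclear relative of these caps, and Psmf1 a protein that can inhibit the core and compete with the caps. Psme3 was at 70.4, 71.8 and 69.3 CPM and at 76.1, 73.2 and 71.8 CPM (log2 fold change 0.06, SE 0.07, adjusted p = 0.5026). Psmf1 was at 16.6, 18.2 and 17.5 CPM and at 18.3, 17.4 and 18.2 CPM (log2 fold change 0.04, SE 0.08, adjusted p = 0.7362). The difference of Psmf1 was within the spread between mice, and both genes had negative values with total counts (-0.19 and -0.21). The median of the 6 genes of this class was -0.06, or -0.32 with total counts, and it ran from -0.1106 (without labelled cKO 1) to -0.0277 (without labelled Ctrl 2) when 1 library was left out.

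Of the 3 constitutive catalytic subunits, Psmb5 and Psmb7 were higher in libraries labelled cKO and Psmb6 did not pass. The difference between them was not tested. Psmb5, which carries the chymotrypsin-like site, was at 46.0, 46.1 and 59.8 CPM in libraries labelled Ctrl and at 65.8, 64.1 and 83.4 CPM in libraries labelled cKO. The groups did not overlap, and library 3 was the highest in each group. The log2 fold change was 0.49 (SE 0.15, adjusted p = 0.04718). Psmb7, which carries the trypsin-like site, was at 199, 218 and 208 CPM and at 263, 265 and 260 CPM (log2 fold change 0.34, SE 0.08, adjusted p = 0.02021). The libraries labelled cKO lay close to each other and above all libraries labelled Ctrl. Psmb6, which carries the caspase-like site, was at 105, 110 and 110 CPM and at 114, 111 and 111 CPM. Its log2 fold change was 0.05 (SE 0.07, adjusted p = 0.6361), or -0.21 with total counts, under which neither Psmb5 nor Psmb7 passed, and Psmb5 also did not pass with upper quartile scaling. Exons of Psmb7 share 11.8% of their bases with Nek6 on the opposite strand, and exons of Psmb5 share 12.1% with the microRNA gene Mir686.

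Of the 7 core beta genes tested, 2 passed, both higher in libraries labelled cKO (28.6%, against 12.6% of all genes). The other 4 constitutive beta subunits, Psmb1, Psmb2, Psmb3 and Psmb4, are structural and carry no active site, and their log2 fold changes ran from -0.14 to 0.14. With total counts Psmb1 and Psmb4 were called higher in libraries labelled Ctrl. The median of the class was 0.10, or -0.15 with total counts and 0.048 without labelled cKO 2.

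Of the 8 core alpha genes, 7 were tested and 2 passed, both higher in libraries labelled cKO (28.6%, against 12.6% of all genes). Psma6 and Psma3 encode ring subunits that surround the entry pore. Psma6, the alpha gene with the highest CPM, was at 93.3, 101 and 96.6 CPM in libraries labelled Ctrl and at 117, 116 and 117 CPM in libraries labelled cKO (log2 fold change 0.27, SE 0.07, adjusted p = 0.03192). Psma3 was at 72.4, 80.0 and 82.8 CPM and at 92.8, 97.1 and 102 CPM (log2 fold change 0.31, SE 0.08, adjusted p = 0.03237). For both genes the groups were apart, and with total counts their values were 0.01 and 0.06 and neither passed. The other 5 tested alpha genes ran from -0.09 (Psma1) to 0.25 (Psma7), and the class had a median of 0.16, or -0.10 with total counts, under which Psma1 and Psma5 were called higher in libraries labelled Ctrl. Psma8, the testis-specific alternative to Psma7, was at or below 0.0779 CPM in every library and was not tested.

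Base genes encode the ATPase ring (Psmc1 to Psmc6) and the scaffold and receptor subunits. Of 9 base genes, 2 passed, both scaffolds and both higher in libraries labelled cKO (22.2%, against 12.6% of all genes). Psmd2, the base gene with the highest CPM, was at 277, 301 and 309 CPM in libraries labelled Ctrl and at 383, 341 and 371 CPM in libraries labelled cKO (log2 fold change 0.30, SE 0.09, adjusted p = 0.04504). Psmd1 was at 180, 190 and 208 CPM and at 308, 219 and 278 CPM (log2 fold change 0.48, SE 0.14, adjusted p = 0.04195). The groups were apart for both genes, with the library labelled cKO 2 the lowest of its group in each. Each of the 6 ATPases lay within 0.09 of 0 on the log2 scale, from -0.03 (Psmc4) to 0.08 (Psmc2), and none passed with TMM scaling, while with total counts Psmc3, Psmc4 and Psmc6 were called higher in libraries labelled Ctrl. Psmd4, a ubiquitin receptor, missed the threshold in edgeR with a log2 fold change of 0.30 (SE 0.09, adjusted p = 0.05595), passed there without labelled cKO 2 and was called higher in libraries labelled cKO by DESeq2. With total counts neither Psmd1 nor Psmd2 passed, and Psmd2 did not pass without a filter. The median of the class was 0.08, or -0.18 with total counts, and it was 0.0442 without labelled Ctrl 1, 0.023 without labelled cKO 1 and 0.0181 without labelled cKO 3.

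The lid held members called in opposite directions, 1 of 8 genes in each (12.5%, against 12.6% of all genes higher and 11.8% lower in libraries labelled cKO). Psmd8 and Psmd11 are both scaffold subunits that help to hold the lid together. Psmd8, the lid gene with the highest CPM, was at 152, 169 and 178 CPM in libraries labelled Ctrl and at 197, 226 and 233 CPM in libraries labelled cKO (log2 fold change 0.40, SE 0.10, adjusted p = 0.03036), and with total counts it did not pass. Psmd11 was at 131, 144 and 155 CPM and at 110, 92.1 and 101 CPM. All libraries labelled cKO lay below all libraries labelled Ctrl. Its log2 fold change was -0.50 (SE 0.10, adjusted p = 0.01277), and it ran from -0.76 to -0.44 over the alternatives. Psmd11 is the only core, base or lid gene called lower in libraries labelled cKO with TMM scaling, and it lies at chr11:80428615-80473248 with no exon overlap. Psmd14, the lid's deubiquitinase, did not pass (log2 fold change 0.13, SE 0.07, adjusted p = 0.2109). The other 5 lid genes, Psmd3, Psmd6, Psmd7, Psmd12 and Psmd13, ran from 0.02 to 0.33, and the class had a median of 0.15, or -0.10 with total counts.

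The balance between core and cap genes overlapped between the groups. Summed counts of the 14 constitutive core genes stood to those of the 17 base and lid genes at 0.535, 0.530 and 0.510 in libraries labelled Ctrl and at 0.492, 0.552 and 0.514 in libraries labelled cKO. These ratios do not depend on scaling, and the groups overlapped.

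**Figure D3:**
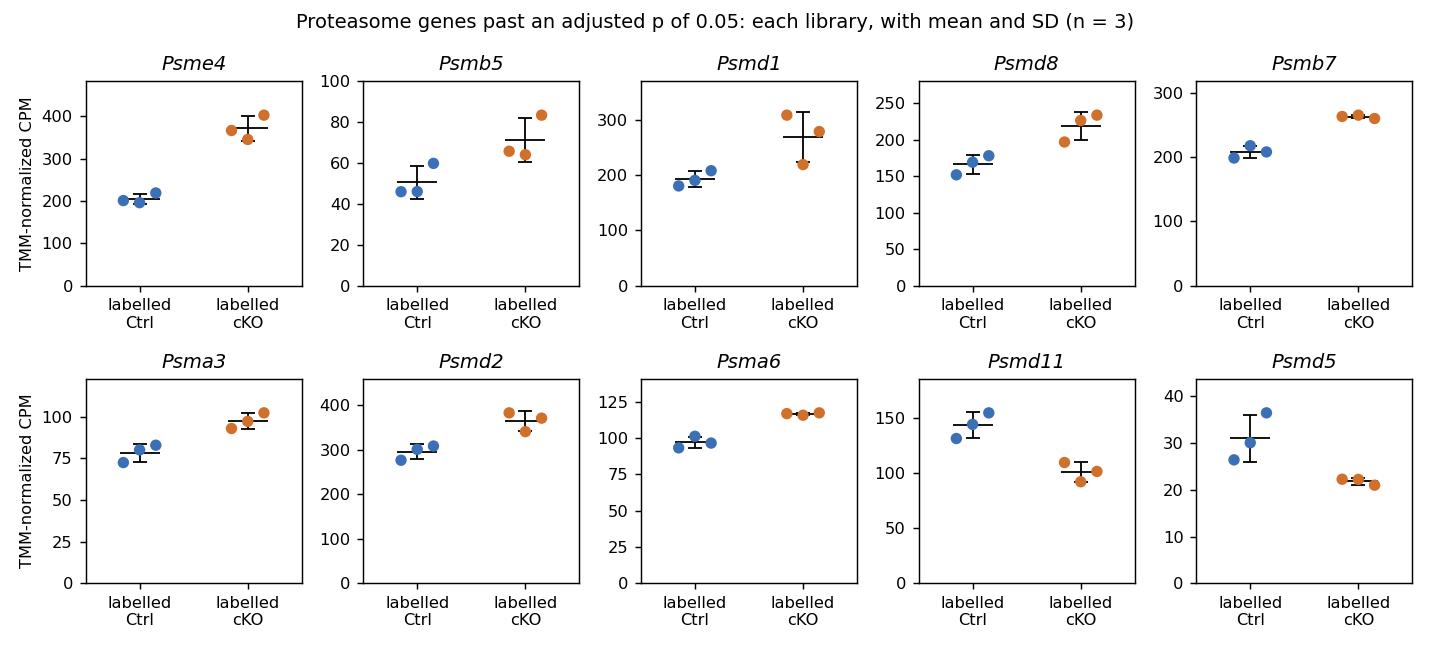
Level in TMM-normalized CPM of the 10 proteasome genes past an adjusted p of 0.05, in each library labelled Ctrl (blue) and labelled cKO (orange), with mean and SD (n = 3). The groups do not overlap in any panel, and Psme4 has the widest gap, from 196 to 219 CPM against 345 to 402 CPM.

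Assembly chaperones help to build the particle and are not part of it when it is finished. Psmg1 to Psmg4 act on the core, and Psmd5, Psmd9 and Psmd10 act on the base. Of the 7 tested, Psmd5 passed, as lower in libraries labelled cKO (14.3%, against 11.8% of all genes). It was at 26.4, 30.1 and 36.5 CPM in libraries labelled Ctrl and at 22.3, 22.2 and 20.996 CPM in libraries labelled cKO. The libraries labelled cKO agreed closely and lay below a wider spread among libraries labelled Ctrl. Its log2 fold change was -0.50 (SE 0.12, adjusted p = 0.0257), and Psmd5 had the highest CPM of the chaperones. Psmd9 and Psmd10 had log2 fold changes of 0.20 (adjusted p = 0.3036) and -0.20 (adjusted p = 0.1911), and neither passed with TMM scaling, while with total counts Psmd10 was at -0.45 and was called higher in libraries labelled Ctrl (adjusted p = 0.03288). The call of Psmd5 was lost without labelled Ctrl 2, labelled cKO 1 or labelled cKO 3. Exons of Psmd9 share 25.5% of their bases with Gm26745 on the opposite strand. The 4 core chaperones ran from -0.12 to 0.09. The median of the class was -0.12, or -0.35 with total counts, and it was -0.0403 without labelled Ctrl 1, -0.0628 without labelled cKO 2, -0.0094 without labelled cKO 3 and 0.0049 without labelled cKO 1, so its sign rested on single libraries. Psmc3ip, the member that is not a subunit, was at 1.84 to 2.27 CPM and 1.58 to 1.69 CPM (log2 fold change -0.29, SE 0.17, adjusted p = 0.2566).

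The interferon-inducible catalytic subunits were scarce, and 0 of 3 passed the test in edgeR (0 at an unadjusted p under 0.05 and 0 in DESeq2). Psmb8 replaces Psmb5, Psmb9 replaces Psmb6 and Psmb10 replaces Psmb7 in the immunoproteasome, which favours the cutting of peptides for display on MHC class I. Psmb8 was at 6.51, 4.68 and 11.8 CPM in libraries labelled Ctrl and at 4.18, 4.18 and 5.999 CPM in libraries labelled cKO (log2 fold change -0.67, SE 0.34, adjusted p = 0.1885). Psmb9 was at 3.04, 2.63 and 6.75 CPM and at 1.67, 2.52 and 2.91 CPM (log2 fold change -0.80, SE 0.39, adjusted p = 0.1796). In both genes the library labelled Ctrl 3 stood above the other 5, and the other libraries of the groups overlapped. Without that library the log2 fold changes were -0.22 and -0.25. Psmb10 was at 10.9, 12.7 and 14.7 CPM and at 9.14, 10.3 and 11.4 CPM (log2 fold change -0.31, SE 0.14, adjusted p = 0.1524). The groups overlapped here too, and without labelled Ctrl 3 the value was -0.19. With total counts Psmb10 was called higher in libraries labelled Ctrl. Psmb11, the thymus-specific catalytic subunit, was at or below 0.0547 CPM and was not tested. Exons of Psmb9 share 5.8% of their bases with Tap1 and those of Psmb8 share 14.7% with Gm20496, each on the opposite strand.

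Set against the constitutive subunit of the same site, each inducible subunit had a lower mean in libraries labelled cKO, by a ratio that needs no scaling between libraries. Counts of Psmb8 were 14.2, 10.2 and 19.7% of those of Psmb5 in libraries labelled Ctrl and 6.35, 6.52 and 7.19% in libraries labelled cKO. The groups did not overlap, with a difference of the log2 ratio of -1.08 (p = 0.1 by an exact two-sided permutation test, which can go no lower with 3 against 3 libraries, adjusted p = 0.15 over 3 ratios). Counts of Psmb10 were 5.47, 5.82 and 7.05% of those of Psmb7 and 3.48, 3.88 and 4.40%, again apart, with a difference of -0.64 (exact permutation test, p = 0.1, adjusted p = 0.15). For Psmb9 over Psmb6 the values were 2.91, 2.39 and 6.15% and 1.46, 2.28 and 2.62%. These overlapped, with a difference of -0.76 (exact permutation test, p = 0.2, adjusted p = 0.2). With the library labelled Ctrl 3 left out, the differences were -0.85, -0.53 and, for Psmb9 over Psmb6, -0.36. In the Psmb8 and Psmb10 ratios the constitutive partner is a gene that passed as higher in libraries labelled cKO, whereas Psmb6 did not pass.

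**Figure D4:**
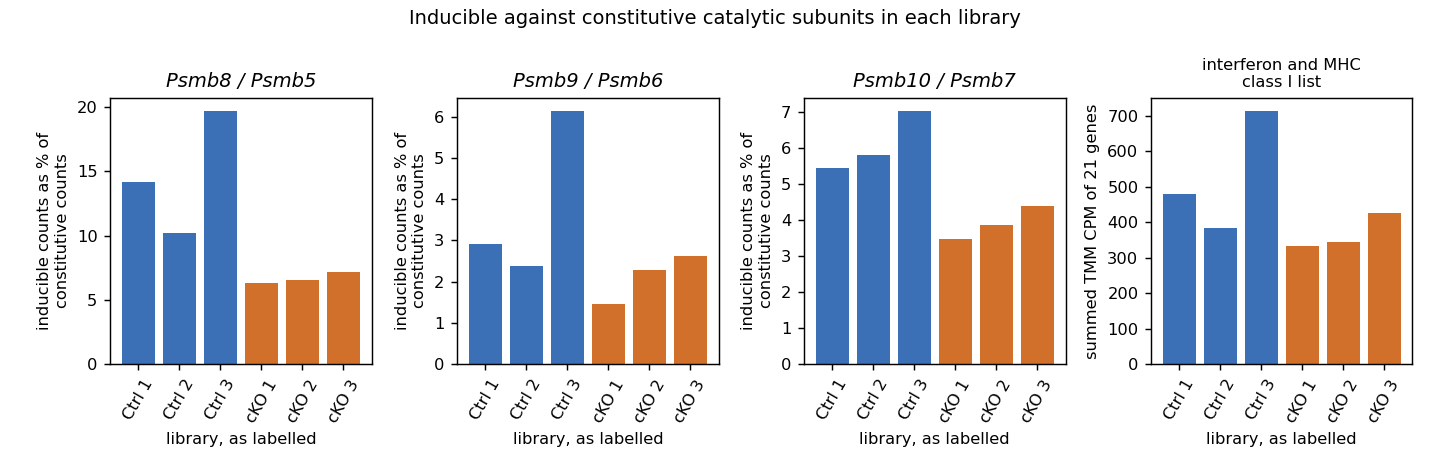
Counts of each inducible catalytic subunit as a percentage of the counts of its constitutive partner in each library (blue labelled Ctrl, orange labelled cKO), and the summed TMM CPM of 21 interferon and MHC class I genes. Ratios of Psmb8 and Psmb10 do not overlap between the groups, and the library labelled Ctrl 3 is the highest in all 4 panels, with 19.7% for Psmb8 over Psmb5 and 714 CPM for the list.

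Interferon and immune marker genes were read beside these subunits. A list of 21 interferon and MHC class I genes had 0 genes called higher and 4 called lower in libraries labelled cKO by edgeR (19%, against 11.8% of all genes in that direction). At an unadjusted p under 0.05 edgeR had 0 higher and 12 lower, and the median log2 fold change over the list was -0.57. DESeq2 called 0 higher and 9 lower in the list, against 2094 higher and 1830 lower of all 14881 genes it tested. Its summed level was 480, 384 and 714 CPM in libraries labelled Ctrl and 332, 345 and 427 CPM in libraries labelled cKO. The library labelled Ctrl 3 was again the highest, and Tap1, the peptide transporter gene next to Psmb9, was at 6.56, 4.97 and 19.4 CPM and at 4.15, 3.71 and 5.45 CPM. In a list of 15 immune cell markers, 12 were tested and 10 were called lower in libraries labelled cKO by edgeR (83.3%, against 11.8% of all genes). All 12 had values below 0 with the groups apart, whereas the groups stood apart for 43.9% of all genes. All 12 were also lower at an unadjusted p under 0.05 and in DESeq2, with summed levels of 223 to 257 CPM and 108 to 147 CPM. Lyz2 was its most abundant gene (76.7, 76.8 and 83.2 CPM against 30.2, 43.2 and 39.2 CPM), and the lymphocyte markers Cd3e and Cd79a were at or below 0.415 CPM in every library. The part of immune cells and of interferon signalling in the levels of the inducible subunits was not tested. Of the other lists, 2 of 8 fibro-adipogenic genes were lower in edgeR (25%, against 11.8% of all genes) and 3 in DESeq2. Of 7 endothelial genes 0 passed in edgeR, against 24.4% of all genes in either direction, with 0 at an unadjusted p under 0.05 and 0 in DESeq2. With 7 or 8 genes per list, such counts say little about a difference from all genes.

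Levels can be set side by side per transcript length, as CPM per kb of the principal transcript. On this scale the group medians were 97.7 for core beta, 89.6 for base, 71.5 for lid, 69.4 for core alpha, 20.5 for the activators and inhibitor, 7.47 for assembly and 3.82 for the inducible catalytic subunits. The first 4 classes overlapped widely, from 24.7 (the lowest alpha gene) to 203 (Psmb7). All 7 assembly genes, at 6.01 to 17.6, and all 3 inducible subunits, at 2.41 to 8.78, lay below every constitutive core, base and lid gene tested. The length of all annotated exons in place of the principal transcript, an alternative added after the data were seen, changed these medians to 58.8, 59.1, 39.4, 28.5, 12.7, 6.67 and 1.84 and moved Psmb7 from rank 1 to rank 7, so single ranks among the abundant subunits rest on the transcript model. On the per-kb scale Psmb8 stood at 7.25, 5.31 and 9.81% of the sum of Psmb8 and Psmb5 in libraries labelled Ctrl and at 3.39, 3.48 and 3.82% in libraries labelled cKO, and the shares were 1.39 to 3.5% and 0.85 to 1.52% for Psmb9 beside Psmb6 and 4.61 to 5.87% and 2.98 to 3.74% for Psmb10 beside Psmb7. At each site most transcripts were of the constitutive type.

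**Figure D5:**
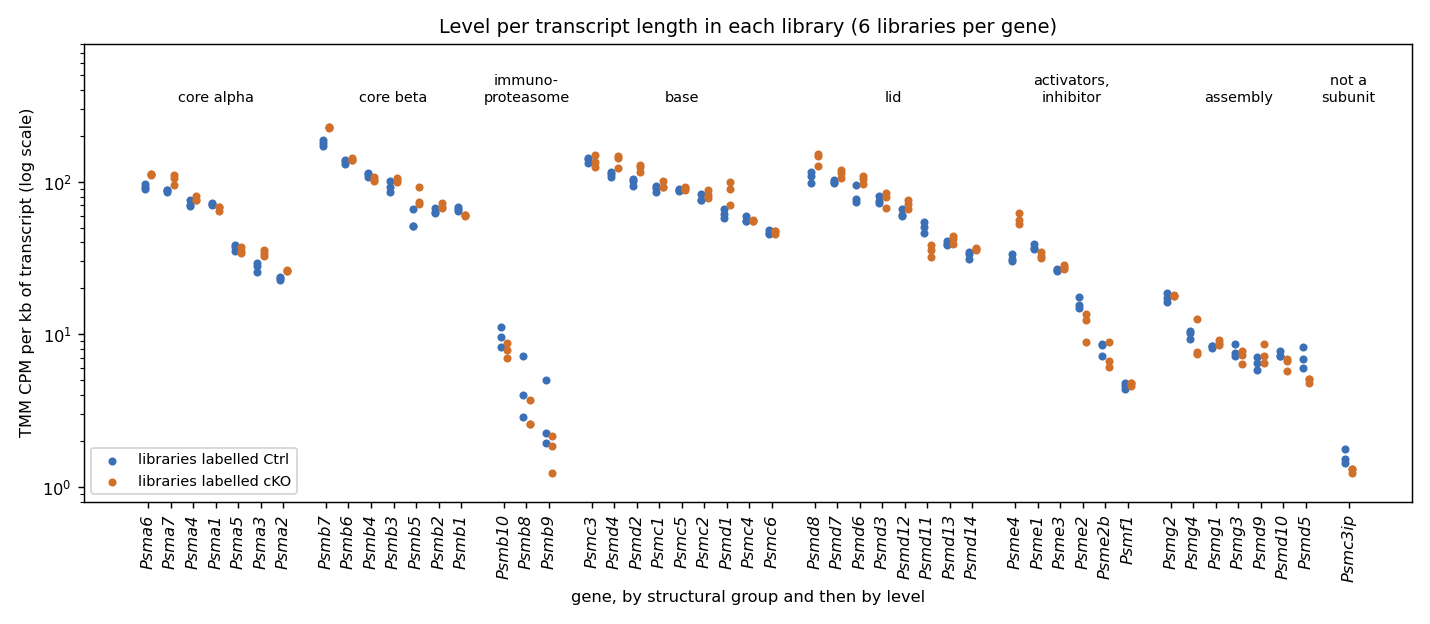
TMM-normalized CPM per kb of principal transcript (log axis) for each tested proteasome gene in each of 6 libraries, by structural group. Constitutive core, base and lid genes lie between 24.7 and 203 on average, above all assembly genes (6.01 to 17.6) and all inducible subunits (2.41 to 8.78).

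Genes that work with the proteasome but carry other symbols were read from a separate list of 38, of which 37 were in the tables and all of those were tested. In libraries labelled cKO 9 were higher (24.3%, against 12.6% of all genes) and 2 were lower (5.41%, against 11.8%). Their median log2 fold change was 0.16. With total counts the numbers were 2 and 6, and without the library labelled cKO 3 they were 3 and 1. The number higher was 4 without labelled Ctrl 2 and 5 without labelled Ctrl 1 or labelled cKO 1, and the number lower was 1 in each of these fits and 3 without labelled cKO 2.

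Of 7 genes of proteasome-associated proteins, 3 were higher (42.9%, against 12.6% of all genes) and 1 was lower (14.3%, against 11.8%) in libraries labelled cKO. AI314180, the mouse gene of the proteasome adaptor ECPAS, was at 221, 210 and 264 CPM in libraries labelled Ctrl and at 396, 325 and 382 CPM in libraries labelled cKO (log2 fold change 0.67, SE 0.12, adjusted p = 0.01062). Uchl5, a deubiquitinase bound to the base, was at 16.4, 16.9 and 18.3 CPM and at 23.4, 26.5 and 26.1 CPM (log2 fold change 0.56, SE 0.09, adjusted p = 0.006777). Akirin2, needed for import of the proteasome into the nucleus, was at 56.0, 48.8 and 45.5 CPM and at 28.1, 29.6 and 26.9 CPM (log2 fold change -0.83, SE 0.09, adjusted p = 0.003045). The groups were apart for all 3 genes, and AI314180 and Akirin2 were called under every scaling, filter and left-out library. With total counts AI314180 had a log2 fold change of 0.41, and Uchl5 was at 0.31 and lost its call (adjusted p = 0.06909). Ube3c, a ligase on the proteasome that was named after its value was seen, had a log2 fold change of 0.28 (adjusted p = 0.04723). Its call held without labelled Ctrl 3 and was lost when any other library was left out, with upper quartile scaling, without a filter and with total counts, where its value was 0.02 (adjusted p = 0.8538).

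The transcription of proteasome genes is known to depend on Nfe2l1, whose product is freed from the endoplasmic reticulum with the help of the deglycosylase Ngly1 and cut by the protease Ddi2. Nfe2l1 itself was at 1273, 1226 and 1181 CPM in libraries labelled Ctrl and at 974, 1030 and 910 CPM in libraries labelled cKO (log2 fold change -0.34, SE 0.10, adjusted p = 0.04222). Ddi2 was at 9.93, 10.4 and 16.6 CPM and at 23.2, 23.3 and 26.5 CPM (log2 fold change 0.99, SE 0.20, adjusted p = 0.01404). Ngly1 was at 37.5, 44.7 and 50.2 CPM and at 62.1, 60.3 and 65.1 CPM (log2 fold change 0.50, SE 0.11, adjusted p = 0.01901). The groups were apart for all 3 genes, with Nfe2l1 lower and Ddi2 and Ngly1 higher in libraries labelled cKO. With total counts Ngly1 was at 0.25 and did not pass (adjusted p = 0.1094), Nfe2l1 was at -0.59, and without a filter Nfe2l1 did not pass. The call was lost without labelled Ctrl 2 or labelled cKO 3 for each of them, and also without labelled cKO 1 for Nfe2l1 and Ngly1 and without labelled Ctrl 1 for Nfe2l1. Exons of Ddi2 share 18.3% of their bases with Rsc1a1 on the same strand, whose reads could not be told apart there. Nfe2l2, a related factor of the oxidative stress response, did not pass with TMM scaling (log2 fold change -0.18, adjusted p = 0.3276) and was called higher in libraries labelled Ctrl with total counts.

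Shuttle and segregase genes bring ubiquitinated proteins to the proteasome, and among them Ubqln4 passed with a log2 fold change of 0.43 (adjusted p = 0.01488). Its call held without labelled Ctrl 3 or labelled cKO 2 and was lost without any 1 of the other libraries and with total counts. The segregase Vcp did not pass (log2 fold change 0.16, adjusted p = 0.3105). Of the 6 ubiquitin and E1 enzyme genes 0 passed in edgeR (1 at an unadjusted p under 0.05, 0 in DESeq2), with log2 fold changes of -0.36 to 0.19. Of 6 muscle ubiquitin ligases, Trim63 and Trim54 passed (33.3%, against 12.6% of all genes) with log2 fold changes of 1.05 (SE 0.29, adjusted p = 0.03995) and 0.48 (SE 0.09, adjusted p = 0.01217). Trim63, which tags myofibrillar proteins, was at 242, 190 and 325 CPM in libraries labelled Ctrl and at 706, 336 and 526 CPM in libraries labelled cKO, so the groups were apart by a narrow margin. Its call held without labelled Ctrl 3 or labelled cKO 2 and was lost when any other library was left out and in the robust fit. The call of Trim54 was lost without labelled Ctrl 1 or labelled cKO 3, and with total counts neither of these ligases passed. The other 4 ligase genes, named after their values were seen, did not pass in edgeR. Fbxo30 had a value in the opposite direction, at 31.5, 25.1 and 45.0 CPM in libraries labelled Ctrl and at 13.7, 24.96 and 17.2 CPM in libraries labelled cKO (log2 fold change -0.86, SE 0.27, adjusted p = 0.05736), and it passed as lower with total counts. The atrophy gene Fbxo32 had a log2 fold change of 0.49 (SE 0.16, adjusted p = 0.06446), Fbxo40 of 0.35 (adjusted p = 0.08053) and Trim55 of 0.16 (adjusted p = 0.1619). DESeq2 called 4 of the 6 higher in libraries labelled cKO, adding Fbxo32 and Fbxo40, and 1 lower, Fbxo30.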

How the data were processed

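Bulk RNA-Seq counts of GP muscle were used from 3 libraries labelled Ctrl and 3 labelled cKO, each from 1 mouse. Per the labels and the study's methods, the authors used Trimmomatic 0.39 for trimming, HISAT2 2.1.0 for alignment of the paired-end reads to mm10 and featureCounts 1.6.2 for counting per gene. The deposited values are whole-number counts without normalization, and the strand setting of the counting was not given in the sources used here. Groups followed the labels although Net39 goes against them.

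The test across genes was edgeR 4.0.16 under R 4.3.3 (TMM, filterByExpr, glmQLFTest, Benjamini-Hochberg adjustment over all 14180 genes tested). Standard errors were derived from the F statistic. For ratios within libraries, an exact permutation test (two-sided) was used. DESeq2 1.42.0 was an alternative, beside other scalings and filters, a robust fit, a replicate block and leaving out each library. Gene positions, transcript lengths and exon overlaps came from GENCODE M21, matched by symbol, and promoters from RefSeq. The fit was tested on simulated data of 14065 genes, in which it found 15 of 67 genes changed 1.5-fold, 43 of 67 changed 2-fold and 59 of 66 changed 4-fold, with 8 other genes called.

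The members and gene lists were chosen with earlier results of these data known. Values in every library are given for the catalytic subunits Psmb5 to Psmb10, the activators and the inhibitor, and in each structural group for the 2 members of smallest p in each direction among those that passed and for the member of highest mean CPM. Related genes that passed are named, at most 2 per subgroup and direction by smallest p, and some listed genes are not reported here by name. Replicate libraries differed by more than counting error (chi-square per degree of freedom 29.5 to 101), so no library repeats another. Precision rests on 3 mice per group.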

Additional observations from a re-analysis of the deposited data

How the results depend on the processing

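Psme4, Psmd11, AI314180 and Akirin2 kept their direction and passed under every scaling, filter, left-out library and the replicate block, while a fold limit removed calls as follows. The 8 members called higher in the libraries labelled cKO became 1 with total counts, 0 with a fold change over 2 and 1 when tested against a fold change of 1.2 (glmTreat), and they numbered 7 to 11 under the DESeq2 size factors, upper quartile scaling, other filters, DESeq2's own test and the robust fit. The 2 called higher in those labelled Ctrl became 13 with total counts, 0 with a fold change over 2 and 0 with glmTreat. Related genes moved from 9 higher to 2 with total counts, and from 2 lower to 6 with total counts and 1 without a filter. Leaving out 1 library gave 1 to 7 members higher and 1 to 3 lower, 3 to 10 related genes higher and 1 to 3 lower, a Net39 value of 4.10 to 4.31, and differences of log2 ratios of -1.32 to -0.85 (Psmb8 to Psmb5), -1.04 to -0.36 (Psmb9 to Psmb6) and -0.73 to -0.53 (Psmb10 to Psmb7). Over all genes, total counts gave 673 higher and 4074 lower (14.2% higher, against 51.7% with TMM), and leaving out 1 library 766 to 1777 higher.

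With total counts 20 members turned below 0: Psma2 -0.10, Psma4 -0.16, Psma7 -0.0118, Psmb2 -0.15, Psmb3 -0.12, Psmb6 -0.21, Psmc1 -0.18, Psmc2 -0.17, Psmc5 -0.22, Psmc6 -0.25, Psmd3 -0.24, Psmd7 -0.0764, Psmd9 -0.0665, Psmd12 -0.0638, Psmd13 -0.18, Psmd14 -0.13, Psme3 -0.19, Psmf1 -0.21, Psmg1 -0.16 and Psmg2 -0.21. Upper quartile scaling turned Psmd3 (-0.0002) and Psmc6 (-0.0193), and a filter of 10 counts turned Psmc6 (-0.0034). Without 1 library, 6 members near 0 changed sign: Psmc3 ran from -0.1061 to 0.0203, Psmc4 from -0.0461 to 0.0132, Psmc6 from -0.0235 to 0.0295, Psmd3 from -0.0552 to 0.0929, Psmg2 from -0.0068 to 0.0952 and Psmg4 from -0.42 to 0.0049. That total counts lower all values together follows from its construction, and the cause of the other changes was not tested.

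The mouse numbers of the labels did not pair the libraries: deviations of same-numbered libraries correlated at 0.084, -0.215 and -0.002, and 1 of 6 libraries correlated best with its own number. With the number as a replicate block, 3 members were called higher (Psmb5, Psmd8 and Psme4) and 1 lower (Psmd11) in the libraries labelled cKO. Over all 14180 genes tested, that fit called 927 higher and 972 lower, against 1786 and 1668 without the block. Among related genes it called 7 higher and 1 lower. With 3 mice per group, a 1.5-fold change was often missed in simulated data, where the changed genes were drawn from all genes tested. Members had smaller standard errors than all genes (median 0.08 against 0.14). The simulated rate therefore does not measure how often a change in a member would be missed. Most members differed by less than 1.5-fold.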
